A study of Mus musculus with 6 samples.

Results

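The genes described here encode subunits and regulators of the sodium pump (Na,K-ATPase): the beta subunits Atp1b1, Atp1b2 and Atp1b3 and the FXYD proteins Fxyd1, Fxyd2 and Fxyd5. They were taken as every probe set whose platform annotation, updated to current symbols, gave exactly 1 of these 6 names, which found 8 of 12422 probe sets and all 6 genes, of 8251 genes with a probe set of their own. The arrays measured RNA from whole mouse metanephros, the embryonic kidney, at embryonic day E14.5. The 2 Wnt4 mutant samples carried the Wnt4tm1Amc allele, are labelled strain 129, and each pooled 8 to 10 kidneys from 4 to 5 embryos; the labels do not state zygosity. The 4 wild-type samples are labelled strain CD-1 and each pooled 2 kidneys. The protocol text of both groups speaks of CD-1 matings, and embryo sex is labelled unknown. Strain label, pool size and genotype go together and cannot be told apart. Wnt4 is a secreted signal needed to form the renal vesicle, the first epithelium of the nephron. Per the design text, the mutant lacks this structure and what develops from it, and the comparison was made to find the genes active there.

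The sodium pump moves sodium out of the cell and potassium in, and in kidney tubules it sits in the basolateral membrane and drives reabsorption of sodium and of the solutes that travel with it. Its catalytic alpha subunit needs a beta subunit, a glycoprotein, to fold and to reach the cell surface. FXYD proteins are short single-span membrane proteins that attach to this pair and set its affinity for ions in a tissue-dependent way. Fxyd2, the gamma subunit, is the form best known from the renal tubule. The 4 alpha subunit genes were not analysed here.

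Promoter sequences are shown for Fxyd1, which passed the test, and for a FXYD gene and a beta subunit that did not, to set their letters side by side. They are from RefSeq (GRCm38.p6) and cover 250 bases before to 50 after the start site that each entry gives. Of the 6 genes, 4 had an entry: Fxyd1, Fxyd5, Atp1b1 and Atp1b3. Fxyd5 lies near Fxyd1 on chromosome 7 with Fxyd7 between them, and for Atp1b3 the first of 2 entries is shown. The start sites are not alike in place: those of Fxyd5, Atp1b1 and the first Atp1b3 entry are the 5′ ends of the genes in the RefSeq table, while that of Fxyd1 lies 1020 bases inside its gene and that of the second Atp1b3 entry 716 bases inside. All 3 are on the minus strand and are printed 5′ to 3′, at chr7:31054804-31055103 for Fxyd1, chr7:31042282-31042581 for Fxyd5 and chr9:96364382-96364681 for Atp1b3. Capitals mark any match, on either strand, to the TATA-box motif TATAAA, its variant TATATA and the GC-box motif GGGCGG.
Fxyd1: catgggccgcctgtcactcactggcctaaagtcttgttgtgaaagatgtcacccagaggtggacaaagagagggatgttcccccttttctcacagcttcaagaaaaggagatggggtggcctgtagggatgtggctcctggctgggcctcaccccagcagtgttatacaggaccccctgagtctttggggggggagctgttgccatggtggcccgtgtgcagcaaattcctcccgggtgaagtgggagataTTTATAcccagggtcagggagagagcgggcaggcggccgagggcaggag
Fxyd5: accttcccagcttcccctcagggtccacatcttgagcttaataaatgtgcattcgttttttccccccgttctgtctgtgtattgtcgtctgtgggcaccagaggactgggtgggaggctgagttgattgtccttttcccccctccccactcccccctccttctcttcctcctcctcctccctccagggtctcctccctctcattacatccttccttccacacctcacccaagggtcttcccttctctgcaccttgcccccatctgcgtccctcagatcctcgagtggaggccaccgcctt
Atp1b3: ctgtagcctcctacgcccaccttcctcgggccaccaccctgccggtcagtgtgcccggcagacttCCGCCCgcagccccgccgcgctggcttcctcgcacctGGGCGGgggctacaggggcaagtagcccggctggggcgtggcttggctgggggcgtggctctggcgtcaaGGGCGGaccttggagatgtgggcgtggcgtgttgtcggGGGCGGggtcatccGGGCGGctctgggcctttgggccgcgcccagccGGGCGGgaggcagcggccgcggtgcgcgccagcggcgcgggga
The Fxyd1 and Fxyd5 windows held 58.7% and 57.3% G or C and 6 CG dinucleotides each, while those of Atp1b1 and Atp1b3 held 71.0% and 76.0% with 31 and 34. The median over 32851 promoter windows of 300 bases was 52.7% and 7. GGGCGG occurred 6 times in the Atp1b3 window, 2 times in that of Atp1b1 and 0 times in those of Fxyd1 and Fxyd5, and 35.7% of all windows held it on either strand. The Atp1b1 window held TATATA at position -30 from the start site (5.67% of all windows hold it), and the Fxyd1 window held TATAAA on the other strand at position 2 (13.6% of all windows). The E-box motif CANNTG (72.3% of all windows) was in the Fxyd5 window and in both Atp1b3 windows, and GTTAAT (7.1%) was in the second Atp1b3 window, which held 0 GGGCGG. These matches describe the letters and are not binding sites measured here.

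The arrays were alike in level, with median signals of 181.85 to 191.04 in the mutant and 172.7 to 187.8 in the wild type (signal is the linear brightness of a probe set as deposited, in arbitrary units). Correlations of log2 values across probe sets were 0.967 between the mutant arrays, 0.949 to 0.969 among wild-type arrays and 0.944 to 0.955 between the groups. Wnt4 itself read 74.2 and 34.5 in the mutant and 829, 739, 946 and 699 in the wild type (adjusted p = 6.11e-05), the direction the labels give. Whether this probe set lies in the part of the gene that the allele removes was not examined here. Differences below are mutant minus wild type on the log2(signal + 16) scale from a limma fit across 7981 probe sets, with a threshold of 0.05 on the Benjamini-Hochberg adjusted p. At that threshold 10.8% of all tested probe sets were called, 6.11% lower and 4.65% higher. Of the 8 pump probe sets, 5 passed the filter on low signals and were tested: 1 was lower, 1 was higher and 3 did not pass the threshold. For all 5 both mutant values were beyond the wild-type range, 4 below and 1 above. Of all tested probe sets 37.4% did so, 18.8% below and 18.6% above, so such a position is common among all probe sets.

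Fxyd2 fell in Wnt4 mutant kidneys. Its probe set (94827_at) read 265 and 219.95 in mutant replicates 1 and 2, against 1444, 1155, 1491 and 1724 in wild-type replicates 1 to 4. Both mutant arrays lay far below the lowest wild-type array, and the wild-type pools varied among themselves, with replicate 2 the lowest and replicate 4 the highest. The means were 242 ± 31.8 in the mutant and 1454 ± 233 in the wild type (SD, n = 2 and 4). The difference was -2.50 ± 0.16 (SE; 95% interval -2.86 to -2.13; limma, adjusted p = 5.5e-05), which is 5.65-fold lower on that scale. Of the 488 probe sets called lower, 28 had a larger fall on that scale. This rank depends on the offset of 16, since falls to dim mutant signals come out too small. The Fxyd2 signal stayed above the filter level, the 40th percentile of an array (110.4 and 106.77 on the mutant arrays), on both mutant arrays, so it was still tested as a measured signal there. RNA came from whole organs, so fewer cells of a type and less RNA per cell cannot be told apart, here or for any gene below. Fxyd2 lies next to Fxyd6 on chromosome 9 in the RefSeq table; Fxyd6 was not analysed here.

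Fxyd1 moved the opposite way. Fxyd1 encodes phospholemman, the FXYD protein of heart and skeletal muscle and a substrate of protein kinases there. Its probe set (93040_at) read 906 and 816 in the mutant, against 447, 444, 333 and 408 in the wild type. Every mutant array was above every wild-type array. The means were 861 ± 63.6 in the mutant and 408 ± 53.3 in the wild type (SD, n = 2 and 4), a difference of 1.06 ± 0.15 (SE; 95% interval 0.72 to 1.39; limma, adjusted p = 0.00241), or 2.08-fold higher on the same scale. Of the 371 probe sets called higher, 113 rose by more on that scale. This rank too depends on the offset, since rises from dim wild-type signals come out too small.

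Skeletal muscle markers were higher on the same arrays as Fxyd1. Of 28 listed muscle genes 26 were on the array and 16 were tested; 7 were higher, 0 were lower and 9 missed the threshold, where 5.13% of all genes were called higher and 6.35% lower with 1 probe set a gene. Their median difference was 1.22, against 0.01 over all genes. The summed signal of the 16 was 6996 to 7447 in the mutant and 2364 to 2982 in the wild type. Of the 16, 2 (Tnnc1 and Tnnt2) were below the filter level on every wild-type array and so were tested only through their mutant signals. Testing needed 2 arrays over that level. Acta1, Mylpf, Tnnc2 and Casq2 were over it on 1 wild-type array each, so they too needed a mutant signal to be tested. The count, the median and the sum therefore describe the genes that passed the filter and are no support for the rise of Fxyd1. Tnnc1, a troponin, read 448 and 381 in the mutant, against 33.3 to 92.7 in the wild type, where its level and so the size of its rise were not resolved (limma, adjusted p = 0.00241). Myl1, a myosin light chain, rose by 2.17 and Actc1, cardiac actin, by 2.05 (adjusted p = 0.0272 and 0.00081). Myl1 read 32.6 and 76.6 on wild-type replicates 2 and 4, below the filter level, so the size of its rise depends on the offset. Des, the muscle intermediate filament gene, had 0.29 and Casq1, a calcium store protein, 0.20 (adjusted p = 0.679 and 0.80). Without mutant replicate 1 or without mutant replicate 2, 3 of these genes were called higher. Of 20 tested genes in a list of stromal and smooth muscle markers 10 were higher, 1 was lower and 9 missed the threshold, and the median was 0.56. The 10 higher genes were stromal or matrix genes. Of the smooth muscle genes 0 were higher: Tagln, an actin-binding protein, was the 1 lower gene with -1.32 (adjusted p = 0.000661), and Acta2, smooth muscle actin, had -0.27 (adjusted p = 0.376). Tagln and Acta2 were named after their values were seen. The summed signal of the 20 was 55257 to 57967 in the mutant and 32363 to 40095 in the wild type. Foxd1, which encodes a stromal transcription factor, rose by 1.75, Ntn1, a guidance cue, by 1.75 and Smoc2, a matrix protein, by 1.43, while Col1a1 and Col1a2, the type I collagen genes, had 0.34 and 0.18 (adjusted p = 0.320 and 0.226). The part of muscle or stromal cells in the rise of Fxyd1 was not tested.

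**Figure D1:**
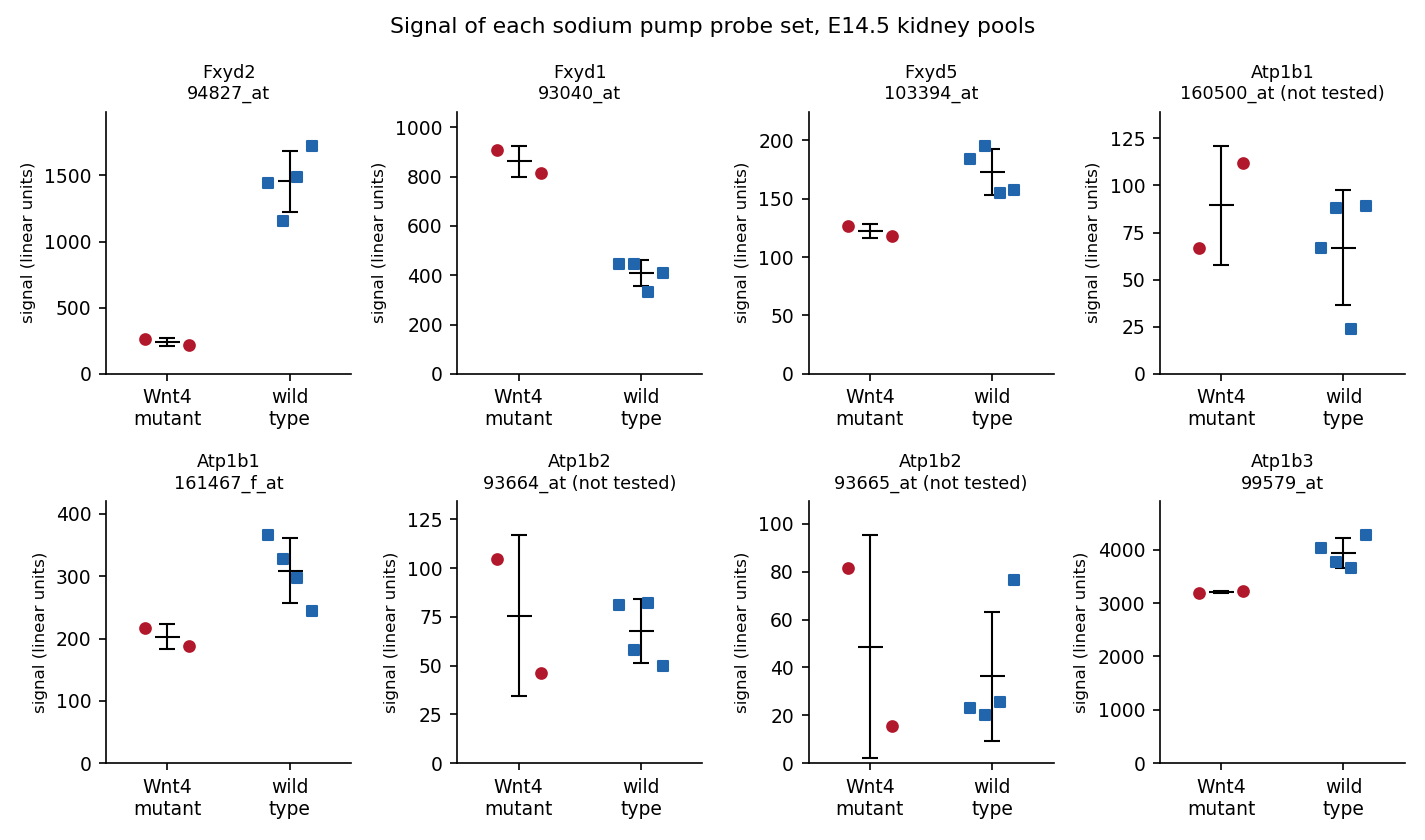
Linear signal of each of the 8 pump probe sets, with Wnt4 mutant arrays (red circles, n = 2) left of wild-type arrays (blue squares, n = 4); bars show the mean ± SD, and each panel starts at 0. Fxyd2 is low and Fxyd1 high on both mutant arrays, Fxyd5, Atp1b3 and the tested Atp1b1 probe set lie below the wild-type range by less, and the 3 untested probe sets overlap.

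Fxyd5 encodes dysadherin, a FXYD protein with a long extracellular part that is known from epithelia and from its effect on cell adhesion. Its probe set (103394_at) read 126 and 118 in the mutant, against 184, 195, 155 and 158 in the wild type. The groups did not overlap, but the gap between them was smaller than the wild-type range. The difference of -0.45 ± 0.23 (SE; 95% interval -0.96 to 0.07) did not pass (limma, adjusted p = 0.25). Fxyd3, a further FXYD gene of the same chromosome 7 region and no member of the set, had 219 and 216 in the mutant, against 208, 169, 162 and 140 in the wild type (0.34 ± 0.22 SE, adjusted p = 0.365). Fxyd7, known from the brain, exceeded the filter level on 1 wild-type array and was not tested: it read 33.7 and 42.8 in the mutant, against 12.1, 111, 14.9 and 13.3 in the wild type. The tested FXYD genes of this region, Fxyd1, Fxyd3 and Fxyd5, gave 1 call, that of Fxyd1. Fxyd5 was below the wild-type range, Fxyd3 above it, and the untested Fxyd7 overlapped it. Of all tested probe sets 10.8% were called and 37.4% had both mutant values outside that range, so such positions are common.

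The general beta subunits showed no call. Atp1b3, a beta subunit found in many tissues (99579_at), read 3195 and 3226 in the mutant, against 4040, 3764, 3650 and 4277 in the wild type. Both mutant arrays were below all wild-type arrays and close to each other. The difference was -0.29 ± 0.09 (SE; 95% interval -0.49 to -0.08; limma, adjusted p = 0.077), or 1.22-fold lower. It passed with array weights (-0.271, adjusted p = 0.0408), and over 16 alternatives the difference ran from -0.324 to -0.248 with adjusted p from 0.0408 to 0.333.

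Atp1b1, the main beta subunit of the adult tubule, was measured by probe sets that gave different pictures. The tested one (161467_f_at) read 217 and 189 in the mutant, against 366, 328, 297 and 244 in the wild type. The mutant arrays were below the wild-type range, with wild-type replicate 4 nearest to them. The difference was -0.56 ± 0.19 (SE; 95% interval -0.999 to -0.12; limma, adjusted p = 0.105). It passed without wild-type replicate 4 (-0.661, adjusted p = 0.0436) and with array weights (-0.605, adjusted p = 0.0378), and adjusted p ran from 0.0378 to 0.421 over 16 alternatives. The suffix f marks a probe set that may also detect similar sequences, and its annotation gives no accession. The other one (160500_at) read 67.1 and 112 in the mutant, against 66.6, 88.3, 24.01 and 89.1 in the wild type. These ranges overlap, 1 of 6 arrays exceeded the filter level, and the probe set was not tested; with no filter its difference was 0.41 (limma, adjusted p = 0.725). The direction for Atp1b1 therefore rests on the tested probe set. Atp1b1 lies between Nme7 and Dpt on chromosome 1, and Atp1b3 between Tfdp2 and Rnf7 on chromosome 9.

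Atp1b2, first described as an adhesion molecule on glia, was near the low end of signals. Its probe set 93664_at read 105 and 46.4 in the mutant, against 80.9, 57.9, 82.1 and 49.9 in the wild type. Its probe set 93665_at read 81.7 and 15.7 in the mutant, against 22.9, 20.1, 25.4 and 76.7 in the wild type. Neither exceeded the filter level on any array, so neither was tested and no level can be ordered between the groups; with no filter the differences were 0.074 and 0.21 (limma, adjusted p = 0.950 and 0.891). Of 27 listed neural and glial genes 22 were on the array and 9 were tested, with 0 lower, 0 higher and a median of 0.30, a number too small to set apart from the 11.5% of all genes called with 1 probe set a gene. Their summed signal was 4855 to 5425 in the mutant and 3985 to 4640 in the wild type. Tubb3, the neuronal tubulin, had 0.19 and Uchl1, a neuronal ubiquitin hydrolase, 0.04 (adjusted p = 0.283 and 0.896).

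**Figure D2:**
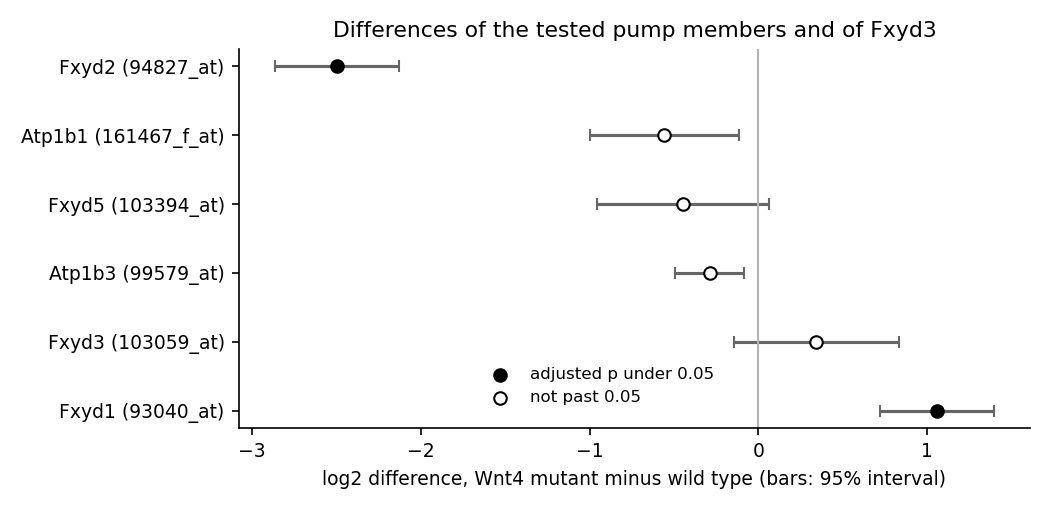
Log2 difference, Wnt4 mutant minus wild type, for the 5 tested pump probe sets and Fxyd3; bars are 95% intervals from the limma fit and filled points are past the threshold of 0.05. Fxyd2 at -2.50 and Fxyd1 at 1.06 are filled, and the other points lie between -0.56 and 0.34.

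Fxyd2 was set against each other tested member within an array. The log2 ratio of Fxyd2 to Atp1b3 differed by -2.21 between mutant and wild type; taken from the wild-type mean, the mutant arrays were at -2.34 and -2.08 and the wild-type arrays between -0.25 and 0.15. The corresponding change was -1.94 for Fxyd2 over Atp1b1 (tested probe set), -2.05 over Fxyd5 and -3.56 over Fxyd1. In each of these 4 ratios the mutant values sat under the whole wild-type range, and the exact two-sided permutation test gave p = 0.0667 (adjusted p = 0.0667 over the 4 ratios). With 15 ways to split 6 arrays, this is the smallest p the design allows, so it cannot pass 0.05. The ratios are therefore a description of these arrays, and give no level of one gene against another. Over 11 alternatives the ratio to Atp1b3 changed by -2.34 to -2.01 and that to Atp1b1 by -2.08 to -1.75.

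**Figure D3:**
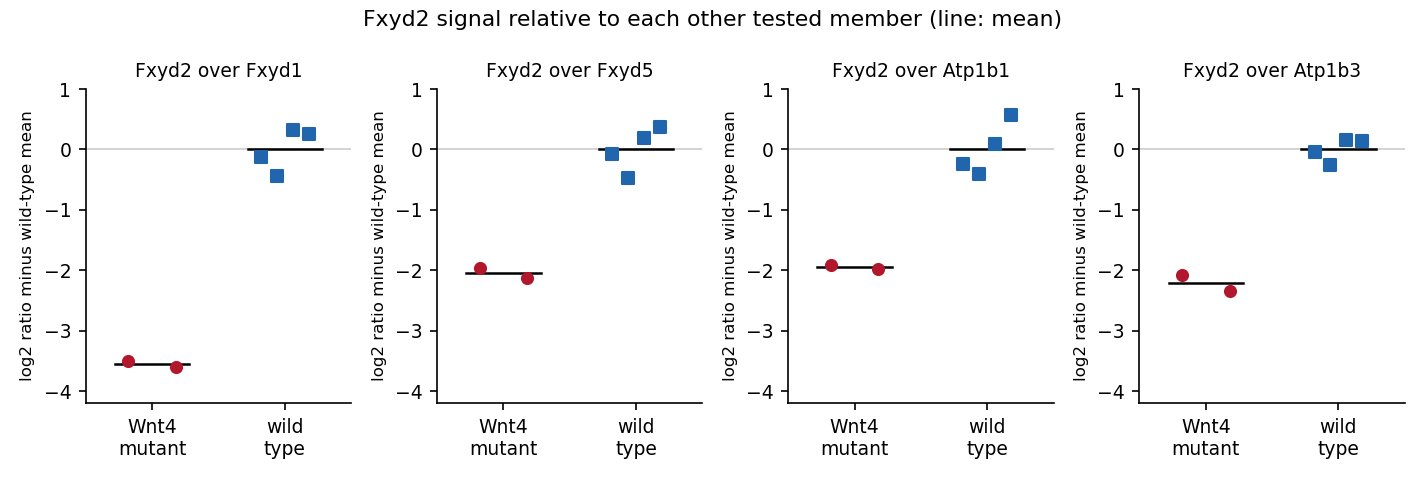
Log2 ratio of Fxyd2 to each other tested member within an array, less the mean of the wild-type arrays, with Wnt4 mutant arrays (red circles) left of wild-type arrays (blue squares); black lines are group means. The mutant arrays lie at -3.61 to -1.91 and the wild-type arrays between -0.48 and 0.57.

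The fall of Fxyd2 was next read beside markers of nephron tubules, which include genes of the early nephron. Of 22 listed genes 21 were on the array and 18 were tested. Over all genes, 6.35% were called lower and 5.13% higher. Here 13 of the 18 were lower and 0 higher, 5 missed the threshold, and the median difference was -1.72. Of the 18, 10 were below the filter level on both mutant arrays, 6 of them among the 13 lower genes, so they were tested only because the wild type was high. Lrp2 and Slc7a9, both lower, were over that level on 1 mutant array each and also needed the wild type to be tested. The count and the median therefore describe the genes that passed the filter and are no support for the fall of Fxyd2. Without wild-type replicate 1, 1 gene of the list was higher. Their summed signal was 3042 and 3350 in mutant replicates 2 and 1, against 7015 to 9380 in the wild type. The array order of that sum was the same as for Fxyd2 in the mutant. In the wild type replicate 2 was lowest and replicate 4 highest for both, but replicates 1 and 3 were in the opposite order. With so few arrays this is a description and no support for a link to Fxyd2. Pdzk1, a scaffold of the proximal brush border, read 10.1 and 11.0 in the mutant, against 518.5 to 803 in the wild type. The loop of Henle cotransporter Slc12a1 read 52.2 and 5.88 in the mutant, against 514 to 849 in the wild type, and the phosphate cotransporter Slc34a1 read 53.6 and 36.4, against 519.81 to 606. All 3 were lower (limma, adjusted p = 1.06e-05, 0.000492 and 2.79e-05), but their mutant signals were below the filter level, so the sizes of these falls were not resolved and are not set beside that of Fxyd2. Pvalb, a calcium-binding protein of the distal tubule, had 0.49, and the transcription factor Pou3f3 read 104 ± 7.36 in the mutant and 222 ± 136 in the wild type (SD, n = 2 and 4; adjusted p = 0.0598 and 0.633).

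Markers of the ureteric epithelium, the other epithelium of this organ, moved in both directions. Of 20 listed genes 16 were on the array and 14 were tested. Over all genes, 5.13% were called higher and 6.35% lower. Here 4 of the 14 were higher and 2 lower, 8 missed the threshold, and the median was 0.38. Their summed signal was 12311 to 12746 in the mutant and 10421 to 11381 in the wild type. Gata2, a transcription factor, rose by 0.94 and the keratin Krt7 by 0.69, while Calb1, a calcium-binding protein that is also in the tubule list, fell by 0.61. Gata3, a transcription factor of the duct, had 0.47 and Tfcp2l1, of the collecting duct, -0.12 (adjusted p = 0.117 and 0.426). The count of higher genes was 2 without wild-type replicate 1 or 2 and 1 without mutant replicate 1 or 2. The count of lower genes was 1 without wild-type replicate 2 or 3 or mutant replicate 1, and 0 without mutant replicate 2. The part of either epithelium in the Fxyd2 difference was not tested.

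Transporters that work with the pump moved in both directions. Of 29 genes listed for sodium entry and potassium recycling, 15 were on the array and 8 were tested. With 1 probe set a gene, 6.35% of all genes were called lower and 5.13% higher. Here 4 of the 8 were lower and 2 higher, 2 missed the threshold, and the median was -0.51. The count of lower genes was 3 when wild-type replicate 1, 2, 3 or 4 was left out in turn. It was also 3 with median centring, no variance trend or the replicate block. Slc12a1 and Slc34a1, which are tubule markers too, were among the lower genes. Both were below the filter level on both mutant arrays, so they were tested only because the wild type was high. The count of lower genes and the median therefore describe the genes that passed the filter. Slc9a3r1, a scaffold for the sodium-hydrogen exchanger, had -1.03 and Slc12a7, a potassium-chloride cotransporter, -0.47 (adjusted p = 0.000661 and 0.0430). The sodium-calcium exchanger Slc8a1, which runs on the gradient the pump makes, rose to 1565 ± 14.6 in the mutant, against 752 ± 69.8 in the wild type (SD, n = 2 and 4), by 1.05 (adjusted p = 0.000661). Slc12a2, the widely expressed sodium-potassium-chloride cotransporter, rose by 0.55 (adjusted p = 0.0203). Slc9a3r1, Slc12a7 and Slc12a2 were named after their values were seen. Slc12a4, a potassium-chloride cotransporter of many cells, had 0.05 and the scaffold Slc9a3r2 -0.56 (adjusted p = 0.862 and 0.207). With mutant replicate 1 or 2 left out, 1 gene of this list was higher.

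Genes known to regulate the pump or its transcription were called at a share near that of all genes, 2 of 13 tested against 11.5%. Of 22 listed, 15 were on the array and 13 were tested; 1 was lower and 1 higher, 11 missed the threshold, and the median was -0.04. Pcbd1, a dimerization cofactor of the transcription factor Hnf1, fell by 0.67 (683 ± 63.5 in the mutant, 1097 ± 77.8 in the wild type; SD, n = 2 and 4; adjusted p = 0.00591). Src, a tyrosine kinase that the pump binds, rose by 1.30 (adjusted p = 0.0239), and this call was lost without mutant replicate 1 or without mutant replicate 2. On wild-type replicates 1 and 3 Src read 106 and 62.4, below the filter level, so the size of its rise depends on the offset. Nedd4, a ubiquitin ligase, had 0.01 and Agrn, a matrix protein, -0.16 (adjusted p = 0.953 and 0.332). Of 15 listed genes of the membrane skeleton that anchors the pump, 7 were on the array and 6 were tested: Add1, an adducin, rose by 0.52 (adjusted p = 0.0324), 5 did not pass, and the spectrins Sptan1 and Sptbn1 had 0.04 and 0.13 (adjusted p = 0.894 and 0.419). Without wild-type replicate 1, mutant replicate 1 or mutant replicate 2 the count of rises in this list was 0.

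P-type ATPases outside the sodium pump gave 0 calls in 12, a count too small to set apart from the 11.5% called over all genes. Of 25 listed, 14 were on the array and 12 were tested, with 0 lower, 0 higher and a median of 0.16. Atp2c1, a calcium and manganese pump of the Golgi, read 773 ± 213 in the mutant and 647 ± 64.1 in the wild type (0.23, adjusted p = 0.445), and the lysosomal Atp13a2 read 912 ± 70.2 and 891 ± 75.8 (SD, n = 2 and 4; 0.04, adjusted p = 0.882).

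**Figure D4:**
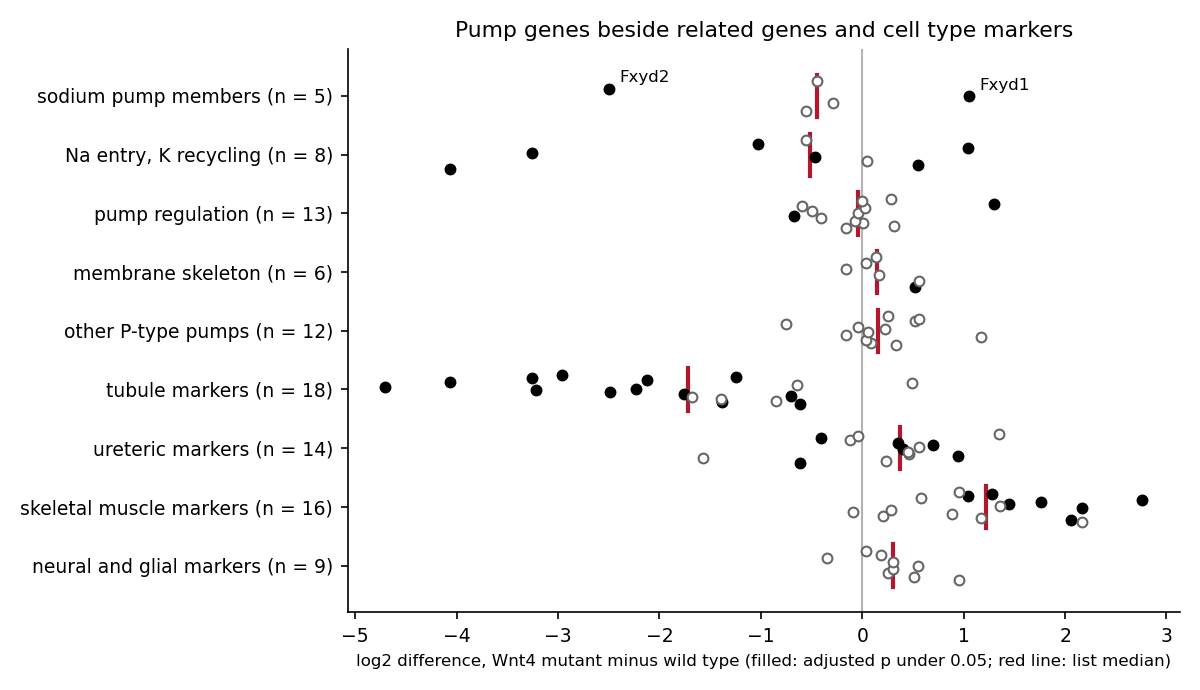
Log2 difference, Wnt4 mutant minus wild type, of each tested gene in 9 lists, 1 probe set a gene; filled points are past the threshold of 0.05, and red lines are list medians. The labelled points in the top row are Fxyd2 (-2.50) and Fxyd1 (1.06), the tubule and muscle lists have medians of -1.72 and 1.22, and none of the 12 other P-type pumps is filled; sizes of genes below the filter level in a whole group, 10 of the 18 tubule genes among them, depend on the offset.

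Erythroid, endothelial and macrophage markers were read for what else the pools held. With 1 probe set a gene, 5.13% of all genes were called higher and 6.35% lower. Of 12 tested erythroid genes 3 were higher and 1 lower. Hbb-bh1, a globin of the embryo, was higher but below the filter level on every wild-type array, and the embryonic genes Hba-x and Hbb-y had 1.78 and 1.66, while Car2 had -1.24. The adult globins Hba-a1 and Hbb-b2 had -0.0039 and 0.03 (adjusted p = 0.987 and 0.936). Among endothelial genes, the nitric oxide synthase Nos3 was below the filter level on both mutant arrays and the junction gene Cldn5 had -0.93. The surface mucin Emcn had -0.63 by its brightest probe set. Its other probe sets had -0.097 and -0.38 and did not pass (limma, adjusted p = 0.609 and 0.576). The probe set with -0.097 had mean signals of 946 in the mutant and 1013 in the wild type. Ramp2, a receptor partner, and Sox18, a transcription factor, had -0.29 and -0.12 (adjusted p = 0.0769 and 0.602). Of 16 endothelial genes 5 were lower, Nos3, Cldn5 and Emcn among them, and 0 higher. Without mutant replicate 1, 2 of these were lower. Among macrophage genes, a dimmer probe set of the complement gene C1qb had 0.33 and did not pass (limma, adjusted p = 0.658). Of 11 macrophage genes 1 was higher, C1qb with 0.95 by its brightest probe set. C1qc of the same complex and the receptor Cd14 had 0.60 and 0.20 (adjusted p = 0.107 and 0.565). That call was lost without mutant replicate 1 or mutant replicate 2, and 2 genes were higher without wild-type replicate 2. The summed signals were 51067 to 52393 against 36684 to 44662 for the erythroid list, 9888 to 9978 against 12373 to 12944 for the endothelial list and 2993 to 3286 against 2129 to 2286 for the macrophage list, mutant against wild type in each. Their part in the results on pump genes was not tested.

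Among named probe sets outside the set, those whose log2 values over the 6 arrays were most like Fxyd2 were Rbpms, Tgds, Gnaz, Cyp51, Car2 and Clu, with Pearson r from 0.996 for Clu to 0.9999 for Rbpms. The 6 arrays fall into 2 groups, so r reflects the difference between the groups first, and it is a description. The probe sets named here for Fxyd2 and below for Fxyd1 were picked by r over these same arrays. A shared order of arrays within a group is therefore favoured by the pick and is no further likeness. Rbpms, an RNA-binding protein gene, read 984 and 932 in the mutant, against 1627, 1536, 1636 and 1715 in the wild type. Wild-type replicate 2 was lowest and replicate 4 highest, and the difference was -0.75 (limma, adjusted p = 0.00116). Car2, a carbonic anhydrase of red cells and of tubule and duct cells, read 297 and 303 in the mutant, against 738, 653, 718 and 831 in the wild type (-1.24, adjusted p = 0.000557). The other 4 were lower too, with -1.59 for Tgds, a signal below the filter level in the mutant for Gnaz, a G protein subunit, -0.57 for Cyp51, a sterol synthesis enzyme, and -1.26 for Clu, the chaperone clusterin. For Fxyd1 the 3 most alike were the imprinted gene Nnat, R3hdm1 and Pofut2, with r of 0.995, 0.994 and 0.994. Nnat read 3339 and 3011 in the mutant, against 1563, 1636, 1098 and 1547 in the wild type (1.13, adjusted p = 0.0023), and wild-type replicate 3 was lowest for both Nnat and Fxyd1. R3hdm1 had 0.33, Pofut2 was below the filter level on every wild-type array, and neither passed (adjusted p = 0.0901 and 0.145).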

How the data were processed

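RNA from 2 pools of Wnt4 mutant and 4 pools of wild-type kidneys was measured on 1-colour Affymetrix MG_U74Av2 arrays. The authors deposited 1 linear signal (intensity) per probe set and array, made with GCOS per the submitters' processing notes; the version is not known here. Each deposited column had a mean of 499.83 to 499.91 without its lowest and highest 2% of values, so the arrays had been scaled alike. Precision is limited by how few arrays there are. Of 12422 probe sets, with 66 control probe sets set aside, 10833 had 1 symbol, 396 had several and 1193 were unnamed here; 10817 matched the RefSeq table of GRCm38.p6 by gene identifier and 16 kept the older name.

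Probe sets over the 40th percentile of their own array on at least 2 arrays were kept, 7981 in all. Values were log2(signal + 16), so fold changes are on that scale and come out too small for dim genes. Groups were compared with limma 3.58.1 under R 4.3.3 (lmFit, eBayes with a variance trend, no covariate), with p-values adjusted by Benjamini-Hochberg across the 7981, and the script was tested on simulated data. For a gene in a list, the probe set of highest mean log2 value was taken; lists were given by counts and medians, with no set test. Named were all pump probe sets, from each list up to 3 genes past the threshold with the largest differences and up to 2 not past it with the highest mean, and the genes most alike in pattern. The members and lists were chosen with earlier results of these data known. The design text calls each pool a biological replicate; whether pools came from separate litters is not stated, and p-values measure the spread between pools. Mutant and wild-type arrays of equal number did not deviate together (correlations 0.00305 and -0.0153), so the numbers were not taken as pairs. No 2 arrays shared more than 0.0403% of values. The alternatives were offsets of 1 and 64, no filter and a filter at the 60th percentile, 2 other scalings, no variance trend, array weights, a replicate block and leaving out arrays.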

Additional observations from a re-analysis of the deposited data

Results flagged for a closer look

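For the Atp1b2 probe set 93665_at, 1 wild-type array stood apart from the other 3: replicate 4 read 76.7, against 22.9, 20.1 and 25.4 in replicates 1 to 3. Its gap to the nearest array was 0.855 of the whole wild-type range on the log2(signal + 16) scale, above Dixon's 95% critical value for 4 samples. The mutant arrays of this probe set also lay far apart, at 81.7 and 15.7. All these signals were below the filter level, and chance flags about 1 in 20 such groups, with the wild-type group of each of the 8 pump probe sets examined.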

How the results depend on the processing

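Over 16 alternatives Fxyd2 stayed lower (-2.62 to -2.30, adjusted p from 6.91e-06 to 0.00177) and Fxyd1 higher (0.924 to 1.13, adjusted p from 0.000904 to 0.0424), each past the threshold in all 16. Fxyd5 stayed lower and did not pass in any of the 15 in which it was tested (-0.574 to -0.345, adjusted p from 0.0999 to 0.566). No difference of a tested member changed sign. With array weights Atp1b1 (-0.605, adjusted p = 0.0378) and Atp1b3 (-0.271, adjusted p = 0.0408) passed, so that 3 pump probe sets were lower, and 738 probe sets were called lower and 613 higher in all. Leaving out 1 array at a time, 188 to 553 probe sets were lower and 114 to 448 higher, 1 to 2 pump probe sets were lower, and Atp1b1 had -0.661 to -0.464. Lower calls numbered 198 and 188 when mutant replicates 1 and 2 were left out in turn and 320 when wild-type replicate 1 was, and higher calls 133 and 114 in the first pair of these; the cause was not tested. The ratio of Fxyd2 to Atp1b3 changed by -2.01 with an offset of 64. The replicate block changed no call on a tested member (Fxyd2 -2.34, Fxyd1 0.924, Fxyd5 -0.574, Atp1b1 -0.731, Atp1b3 -0.279) and gave 362 lower and 341 higher probe sets.

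List counts that moved by over 1.5 times were small ones. In pump regulation, 2 genes were lower with quantile normalization, median centring, array weights or without wild-type replicates 2 and 4, and 0 higher with the 60th percentile filter or the replicate block. In the membrane skeleton list, 0 were higher with median centring or no variance trend and 2 without wild-type replicates 2 and 4. In the sodium entry list, 1 was higher with no variance trend. In the ureteric list, 2 were higher with median centring, 1 with no variance trend, and 1 was lower with the replicate block or without wild-type replicates 2 and 4. In the tubule list, 1 was higher with the 60th percentile filter or array weights, and in the neural list 1 was higher with no trend or array weights. In the erythroid list, 2 were lower with the 60th percentile filter or array weights. In the macrophage list, 0 were higher with no filter, 4 with array weights and 2 without wild-type replicates 2 and 4. In the stromal list, 2 were lower with array weights or without those replicates. With 1 array left out, counts ran from 1 to 2 higher for sodium entry, 0 to 1 for regulation, skeleton and tubule, 1 to 3 higher and 0 to 2 lower for ureteric, 3 to 9 higher for muscle, 0 to 2 higher for macrophage, and 2 to 6 lower for endothelial and 1 to 2 lower for stromal genes. Atp1b2, below the filter level on all arrays, and Fxyd7 and the untested Atp1b1 probe set, each over it on 1 array, had signals too low for a test here.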
